A study of Saccharomyces cerevisiae with 12 samples.

Results

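The comparison described here sets yeast that lack *NCS2*, *ELP6* and *HEL2* (*ncs2*∆*elp6*∆*hel2*∆) against yeast that lack *HEL2* alone (*hel2*∆). It takes 6 of the 12 libraries of the series, 3 of each strain, chosen by their labels, and asks what the loss of tRNA U34 modification changes in cells without *HEL2*. Of the 6302 genes in the table, 3378 passed the filter on low counts and were tested. Every strain used was of the BY4741 background and MATa, with his3Δ1 leu2Δ0 ura3Δ0. The *hel2*∆ strain carried hel2Δ::LEU2, and the *ncs2*∆*elp6*∆*hel2*∆ strain carried the same disruption together with ncs2Δ::HIS3MX and elp6Δ::URA3, so both sides held the LEU2 marker and only one held the HIS3MX and URA3 markers. A change between the strains can come from the *NCS2* and *ELP6* deletions or from these markers, and these cannot be told apart. The same deletions with *HEL2* present, *ncs2*∆*elp6*∆ against wild type (the labels of wild type add met15Δ0), are used only to set against this comparison. By the labels, those strains therefore also differ in met15Δ0. All cultures grew in YPD at 30°C and 200 rpm.

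U34 is the wobble base of the anticodon. In tRNAs for lysine, glutamine and glutamic acid it is modified by Elongator, of which Elp6 is a subunit, and by the Urm1 pathway, in which Ncs2 adds sulphur. Other tRNAs carry U34 modifications without sulphur, which these deletions also remove. Without both pathways, the study found that ribosomes slow at only a part of the affected codons, depending largely on the codon pair. In this yeast proteins misfold and aggregate. Hel2 is the ubiquitin ligase that recognises collided ribosomes and starts ribosome-associated quality control (RQC), which ends in breakdown of the nascent chain and, through no-go decay, of the mRNA. 5PSeq reads the ends of mRNA decay fragments that carry a 5′ phosphate. A change in 5PSeq reads can come from more or less of the mRNA or from faster or slower decay of it. Without RNA-seq values beside them these cannot be told apart, and in bulk samples neither can fewer cells with a transcript and less of it per cell.

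The *hel2*∆ libraries held 204050, 105563 and 205530 reads on genes and the *ncs2*∆*elp6*∆*hel2*∆ libraries 104202, 415323 and 237619, and a tested gene had a median of 142 reads over these 6. In 1 library, 3 reads correspond to between 6.55 and 34.1 CPM, the reads of a gene scaled to library size with edgeR's TMM factors. Replicates of *hel2*∆ correlated at 0.911 to 0.935 (Pearson, log2 CPM) and those of *ncs2*∆*elp6*∆*hel2*∆ at 0.914 to 0.921. The third *ncs2*∆*elp6*∆*hel2*∆ library stood closest to *hel2*∆, with correlations of 0.894 to 0.921 against 0.799 to 0.866 for the first and the second. The labels do not say that replicates came from separate cultures, so p-values measure the spread between these libraries. *NCS2* had 6, 1 and 8 reads in *hel2*∆ and 0, 1 and 1 in *ncs2*∆*elp6*∆*hel2*∆, and *ELP6* had 6, 3 and 11 and 1, 5 and 4. *HEL2* had 5, 1 and 2 and 0, 2 and 3. *URA3*, the marker of the *ELP6* deletion, had 0, 0 and 1 reads in *ncs2*∆*elp6*∆*hel2*∆, and *HIS3* had 2, 12 and 5, so reads of these markers do not check the labelled genotypes. *LEU2*, the marker of the *HEL2* disruption, had few reads, 6, 2 and 2 in *hel2*∆ and 1, 1 and 5 in *ncs2*∆*elp6*∆*hel2*∆. It had 0, 1 and 0 in wild type and 0, 1 and 0 in *ncs2*∆*elp6*∆. Of the MATa markers, *STE2*, the α-factor receptor, had 161, 55 and 124 reads in *hel2*∆ and 53, 307 and 175 in *ncs2*∆*elp6*∆*hel2*∆. *STE6*, *BAR1* and *MFA2* also had reads in each of these 6 libraries. Other MATa markers had few, *MFA1* 1, 1 and 2 and 2, 11 and 4, *AGA2* 4, 2 and 4 and 0, 5 and 1, and *ASG7* 2, 0 and 0 and 0, 1 and 0. Of the MATα markers *MF(ALPHA)1* and *STE3* had at most 2 reads in any of these 6 libraries, while *SAG1*, α-agglutinin, had 13, 6 and 20 and 4, 28 and 10.

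Between *ncs2*∆*elp6*∆*hel2*∆ and *hel2*∆, the 5PSeq reads of 492 of the 3378 genes differed, which is 14.6% of those tested (edgeR's quasi-likelihood test, Benjamini-Hochberg adjusted p under 0.05, n = 3 and 3). Of these, 217 genes (6.42%) were higher and 275 (8.14%) were lower in *ncs2*∆*elp6*∆*hel2*∆. The higher genes had a median log2 fold change of 1.14, with 141 at 2-fold or more and 6 at 4-fold or more. The lower genes had a median of −1.17, with 182 at 2-fold or more and 20 at 4-fold or more. The CPM of the 3 and 3 libraries did not overlap for 203 of the higher and 258 of the lower genes, against 16.5% of all tested genes with no overlap and a higher level and 15.4% with no overlap and a lower one. Among the 275 lower genes, the *ncs2*∆*elp6*∆*hel2*∆ library with the highest level was the third for 216, and without that library the counts were 293 higher and 357 lower. They fell to 53 and 76 without the second *ncs2*∆*elp6*∆*hel2*∆ library, the deepest, and to 64 and 106 without the first *hel2*∆ library. Of the 217 higher and 275 lower genes, 53 and 74 were still called in the same direction without the second *ncs2*∆*elp6*∆*hel2*∆ library, and no gene was called in the opposite direction under any setting tried. With library totals alone in place of TMM, the split was 354 higher to 183 lower, and the median over all genes was 0.24 in place of 0.05.

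**Figure D1:**
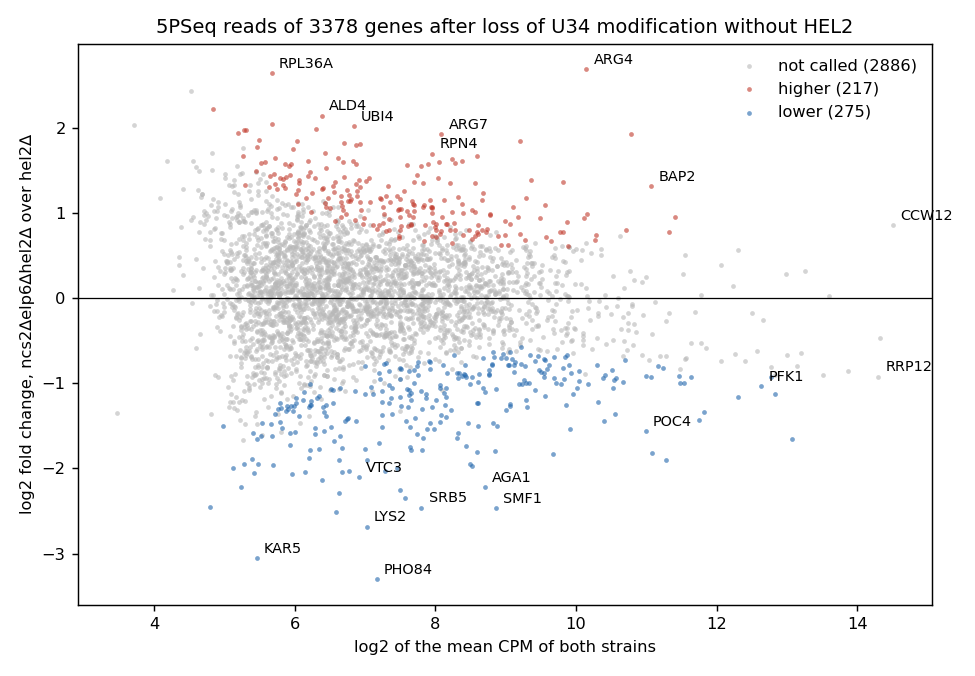
Each point is 1 of the 3378 genes tested, with the log2 of its mean CPM over both strains on the x axis and its log2 fold change, *ncs2*∆*elp6*∆*hel2*∆ over *hel2*∆, on the y axis. The 217 genes called higher and 275 called lower lie on both sides along the whole range of levels, with *ARG4* at 2.69 and *PHO84* at −3.30 as the extremes.

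Genes of amino acid supply were among those that rose most. The highest of all was *ARG4* (YHR018C, chromosome VIII, 140011 to 141402 in assembly R64), which encodes argininosuccinate lyase, the last step of arginine synthesis. It stood at 349, 227 and 317 CPM in *hel2*∆ and 1896, 2211 and 1801 CPM in *ncs2*∆*elp6*∆*hel2*∆. The lowest level with U34 modification lost was well above the highest without the loss, and *ARG4* rose 6.46-fold (log2 fold change 2.69 ± 0.23 SE, adjusted p = 5.83e-08). *ARG7*, the mitochondrial ornithine acetyltransferase, stood at 109, 79.5 and 135 CPM in *hel2*∆ and 444, 371 and 491 CPM in *ncs2*∆*elp6*∆*hel2*∆ and rose 3.81-fold (log2 fold change 1.93 ± 0.26 SE, adjusted p = 4.34e-05). Its strains did not overlap either. Of the 10 arginine genes listed, 6 were tested, and 5 rose and 1 fell, with a list median of 1.66 against 0.05 for all genes. *ARG5,6*, whose protein is cut into the enzymes of steps that follow Arg2, rose (log2 fold change 1.39 ± 0.36 SE, adjusted p = 0.0129) from 92.8, 22.7 and 78.1 CPM to 121, 229 and 181 CPM. *ARG1*, argininosuccinate synthase, rose by 1.03 ± 0.29 (log2, adjusted p = 0.0193). *ARG8*, acetylornithine aminotransferase, ran the other way, from 524, 375 and 432 to 212, 151 and 372 CPM (log2 fold change −0.90 ± 0.28 SE, adjusted p = 0.0315), with −1.40 without the third and −0.59 without the second *ncs2*∆*elp6*∆*hel2*∆ library. Without the second *ncs2*∆*elp6*∆*hel2*∆ library 3 arginine genes rose and none fell. *CPA1* and *ARG3* were too low to test. *ARG1* and *ARG8* lost the call without the first, *ARG5,6* without the second and *ARG1* and *ARG8* without the third *hel2*∆ library. *ARG8* lost the call without the first and *ARG5,6*, *ARG1* and *ARG8* without the second *ncs2*∆*elp6*∆*hel2*∆ library.

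In the other amino acid pathways the calls were fewer and went both ways. Over all genes tested, 6.42% were higher and 8.14% lower. In histidine synthesis 2 of 4 genes tested rose, *HIS5* from 60.0, 45.4 and 93.7 to 171, 166 and 173 CPM (log2 fold change 1.26 ± 0.29 SE, adjusted p = 0.00652) and *HIS1* by 0.78 ± 0.22 (log2, adjusted p = 0.0217), and both strains were apart at *HIS5*. In leucine and branched-chain synthesis 3 of 12 rose and 3 fell. *LEU4*, the main α-isopropylmalate synthase, went from 497, 375 and 265 to 938, 751 and 916 CPM (log2 fold change 1.18 ± 0.27 SE, adjusted p = 0.00584). Its paralog *LEU9* went from 1561, 1340.5 and 989 to 585, 303 and 769.8 CPM, a fall (log2 fold change −1.26 ± 0.27 SE, adjusted p = 0.00326) in which no library overlapped. The branched-chain aminotransferases *BAT1* and *BAT2* also fell, *BAT1* from 1026, 772 and 744 to 494, 275 and 544 CPM (adjusted p = 0.00706) and *BAT2* from 426, 375 and 271 to 151, 127 and 252 CPM (adjusted p = 0.0123). *ILV2* and *ILV6*, both subunits of acetolactate synthase, rose by 0.68 and 0.80 (adjusted p = 0.0329 and 0.0343). *LEU1*, isopropylmalate isomerase, stood at 224, 159 and 177 CPM in *hel2*∆ and 202, 164 and 208 CPM in *ncs2*∆*elp6*∆*hel2*∆, with a log2 fold change of −0.02 ± 0.24. Of the aromatic genes, *ARO9*, an aminotransferase, rose from 65.5, 34.1 and 57.2 to 192, 148 and 186 CPM (log2 fold change 1.61 ± 0.30 SE, adjusted p = 0.00109). *MET6*, methionine synthase, fell from 306, 284 and 344 to 171, 87.3 and 155 CPM (log2 fold change −1.30 ± 0.29 SE, adjusted p = 0.00501). No call was made among 11 genes of serine, glycine, threonine, asparagine and proline synthesis, nor among the 20 cytosolic aminoacyl-tRNA synthetases, whose median was −0.04. *HIS5*, *HIS1*, *BAT1*, *BAT2*, *ILV2* and *ILV6* lost the call without the first, *ILV2* and *ILV6* without the second and *HIS1*, *ILV2* and *ILV6* without the third *hel2*∆ library. *ILV2* and *ILV6* lost the call without the first, *HIS1*, *BAT1*, *BAT2*, *ILV2*, *ILV6* and *MET6* without the second and *HIS1* without the third *ncs2*∆*elp6*∆*hel2*∆ library.

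Amino acid permeases also went both ways. *BAP2*, a branched-chain amino acid permease, stood at 1228, 1227 and 1223 CPM in *hel2*∆ and 3238, 2957 and 2995 CPM in *ncs2*∆*elp6*∆*hel2*∆. Replicates lay close together, and *BAP2* rose 2.5-fold (log2 fold change 1.32 ± 0.23 SE, adjusted p = 0.00058), a call kept under every setting that tested it. *BAP3* rose by 1.00 ± 0.24 and *CAN1*, the arginine permease, by 0.94 ± 0.28 (adjusted p = 0.00906 and 0.0266). *TAT2*, the tryptophan and tyrosine permease, fell from 2315, 1943 and 1697 to 1079, 626 and 1438 CPM (log2 fold change −0.94 ± 0.28 SE, adjusted p = 0.0292). Of 12 permeases tested, 3 rose and 1 fell. Among 12 regulators of general amino acid control, *GCD1*, a subunit of the guanine exchange factor eIF2B, rose (log2 fold change 1.26 ± 0.31 SE, adjusted p = 0.00881) from 81.9, 79.5 and 151 to 333, 242 and 234 CPM. *GCN3*, another eIF2B subunit, fell from 617, 409 and 531 to 131, 151 and 279 CPM (log2 fold change −1.47 ± 0.27 SE, adjusted p = 0.000988) with no overlap. *GCN4*, the transcription factor of this response, stood at 65.5, 34.1 and 31.2 CPM in *hel2*∆ and 111, 89.5 and 84.1 CPM in *ncs2*∆*elp6*∆*hel2*∆, with no overlap and a log2 fold change of 1.01 ± 0.40 that missed the threshold (adjusted p = 0.0896). *BAP3*, *CAN1*, *TAT2* and *GCD1* lost the call without the first, *TAT2* without the second and *CAN1* without the third *hel2*∆ library. *CAN1* and *TAT2* lost the call without the first and *BAP3*, *CAN1* and *TAT2* without the second *ncs2*∆*elp6*∆*hel2*∆ library.

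**Figure D2:**
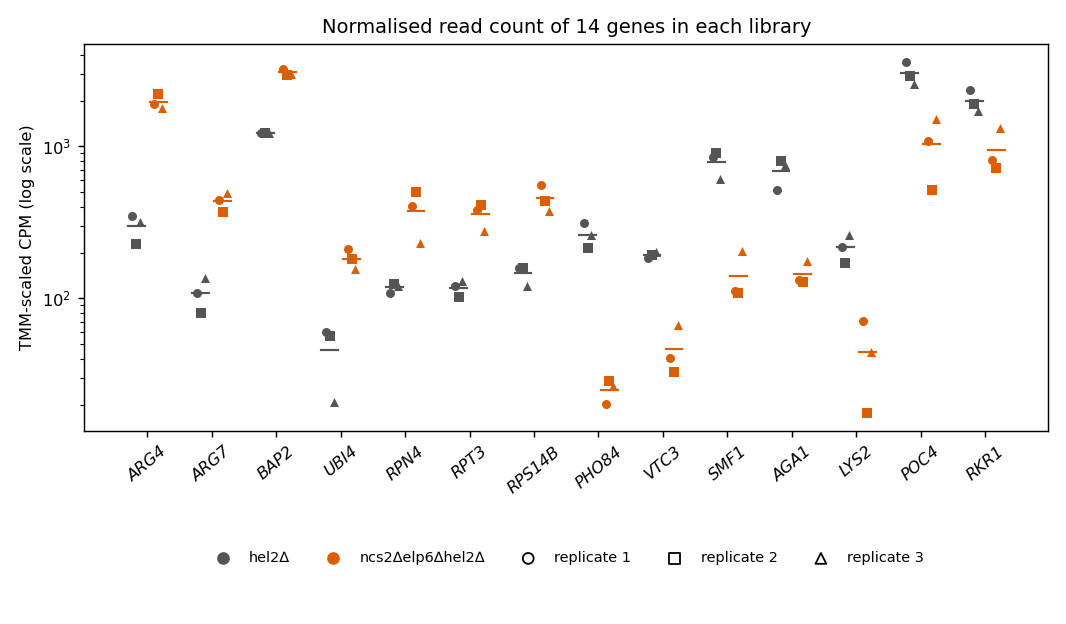
TMM-scaled CPM on a log axis of 14 genes in the 3 *hel2*∆ and 3 *ncs2*∆*elp6*∆*hel2*∆ libraries, with 1 symbol for each replicate and a line at each mean. For each of the 14 genes the strains are apart. The third *ncs2*∆*elp6*∆*hel2*∆ library (triangle) lies nearest to *hel2*∆ for all of them but *ARG7*, *BAP2*, *PHO84* and *LYS2*.

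Many proteasome genes rose. Of 38 tested, 15 rose and 1 fell, 33 had a positive log2 fold change, and the median was 1.00 against 0.05 for all genes. With the second *ncs2*∆*elp6*∆*hel2*∆ library left out 8 rose, and with the first *hel2*∆ library left out 9 did. *RPN4*, the transcription factor that drives proteasome genes, stood at 109, 125 and 119.7 CPM in *hel2*∆ and 403, 498 and 230.1 CPM in *ncs2*∆*elp6*∆*hel2*∆. It rose 3.25-fold (log2 fold change 1.70 ± 0.32 SE, adjusted p = 0.00109), with the third library the lowest of its strain. Of the ATPase ring of the regulatory particle, *RPT3* went from 120.1, 102 and 130.1 to 383, 413 and 279 CPM (log2 fold change 1.58 ± 0.27 SE, adjusted p = 0.000482). *RPT5* and *RPT4* rose by 1.37 ± 0.25 and 1.36 ± 0.25 (adjusted p = 0.000831 and 0.000989), and none of these ring subunits lost its call under any setting that tested it. Of the core particle, *PRE6* went from 10.9, 45.4 and 15.6 to 60.5, 98.2 and 75.2 CPM (log2 fold change 2.05 ± 0.49 SE, adjusted p = 0.00817). *PUP3*, *PRE1* and *PRE2* rose by 1.60, 1.58 and 1.21 (adjusted p = 0.00257, 0.00482 and 0.00274). The 1 proteasome gene that fell was *POC4*, a chaperone of proteasome assembly, from 3614, 2908 and 2571 to 1079, 517 and 1518 CPM (log2 fold change −1.56 ± 0.30 SE, adjusted p = 0.0014). *PRE6* lost the call without the first *hel2*∆ library. *PRE6* lost the call without the second *ncs2*∆*elp6*∆*hel2*∆ library.

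Ubiquitin and several chaperones rose beside the proteasome. *UBI4*, the polyubiquitin gene, stood at 60.0, 56.8 and 20.8 CPM in *hel2*∆ and 212, 181 and 155 CPM in *ncs2*∆*elp6*∆*hel2*∆ and rose 4.07-fold (log2 fold change 2.02 ± 0.36 SE, adjusted p = 0.000711) with no overlap. *ULP1*, a protease that removes the ubiquitin-like SUMO, went from 10.9, 34.1 and 46.8 to 80.7, 162 and 57.5 CPM (log2 fold change 1.85 ± 0.46 SE, adjusted p = 0.00971), with 1.07 in place of 1.85 without the second *ncs2*∆*elp6*∆*hel2*∆ library. Of 36 chaperone and heat shock genes 7 rose (19.4%, against 6.42% of all genes) and none fell, with a median of 0.27. *MDJ1*, a mitochondrial co-chaperone of the DnaJ class, went from 65.5, 204 and 239 to 474, 703 and 314 CPM (log2 fold change 1.61 ± 0.37 SE, adjusted p = 0.00629). *HSP78*, a mitochondrial disaggregase, went from 115, 90.9 and 72.9 to 171, 236 and 208 CPM (log2 fold change 1.18 ± 0.27 SE, adjusted p = 0.00615). *HSP104*, the cytosolic disaggregase, rose by 0.76 ± 0.22 (adjusted p = 0.0212), and *SSA4*, an inducible Hsp70, by 1.30 ± 0.38 (adjusted p = 0.0233), with levels of 54.6, 56.8 and 46.8 and 50.4, 151 and 146 CPM that overlapped. No chaperone was called higher without the second *ncs2*∆*elp6*∆*hel2*∆ library, 1 was without the first *hel2*∆ library, and 4 were without the third *hel2*∆ or the first *ncs2*∆*elp6*∆*hel2*∆ library. The constitutive Hsp70 genes *SSA1* and *SSA2* had log2 fold changes of −0.22 and −0.17 (adjusted p = 0.64 and 0.644). *ULP1*, *MDJ1*, *HSP104* and *SSA4* lost the call without the first and *HSP104* and *SSA4* without the third *hel2*∆ library. *ULP1*, *MDJ1*, *HSP78*, *HSP104* and *SSA4* lost the call without the second and *HSP104* without the third *ncs2*∆*elp6*∆*hel2*∆ library.

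Few ribosomal protein genes passed the test, though most lay above 0. Of 123 cytosolic ribosomal protein genes tested, 12 rose (9.76%) and none fell, 83.7% had a positive log2 fold change, and the median was 0.45. They held 2.84, 2.25 and 2.81% of the reads in *hel2*∆ and 3.91, 4.23 and 3.08% in *ncs2*∆*elp6*∆*hel2*∆, without overlap and with the third library lowest. *RPS14B* stood at 158, 159 and 119.7 CPM in *hel2*∆ and 555, 437 and 376 CPM in *ncs2*∆*elp6*∆*hel2*∆ and rose 3.1-fold (log2 fold change 1.63 ± 0.24 SE, adjusted p = 8.39e-05), while its paralog *RPS14A* had 0.36 ± 0.30 (adjusted p = 0.445). *RPL36A* went from 21.8, 11.4 and 10.4 to 60.5, 131 and 70.8 CPM (log2 fold change 2.65 ± 0.58 SE, adjusted p = 0.00416), and its paralog *RPL36B* had 0.43 ± 0.26 (adjusted p = 0.271). *RPS27A* went from 16.4, 0 and 20.8 to 90.8, 61.1 and 44.2 CPM (log2 fold change 1.98 ± 0.60 SE, adjusted p = 0.029). Reads that fit both copies of such a pair were not counted by the authors, so the values rest on the stretches where the copies differ. *RPL11B* and *RPL11A* rose by 1.15 ± 0.29 and 1.00 ± 0.27 (adjusted p = 0.00994 and 0.0169). Without the second *ncs2*∆*elp6*∆*hel2*∆ library 1 cytosolic gene of this list was called, without the first *hel2*∆ library 2 were, without the second or the third *hel2*∆ library 4 and without the first *ncs2*∆*elp6*∆*hel2*∆ library 6. *RPS27A*, *RPL11B* and *RPL11A* lost the call without the first, *RPS27A* without the second and *RPS27A* and *RPL11A* without the third *hel2*∆ library. *RPS27A* and *RPL11A* lost the call without the first and *RPL36A*, *RPS27A*, *RPL11B* and *RPL11A* without the second *ncs2*∆*elp6*∆*hel2*∆ library.

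Of 27 mitochondrial ribosomal protein genes 4 rose (14.8%, against 6.42% of all genes), with a median of 0.49. *MRPL36* went from 21.8, 34.1 and 36.4 to 70.6, 131 and 84.1 CPM (log2 fold change 1.76 ± 0.39 SE, adjusted p = 0.00527). None of the 4 was called without the second *ncs2*∆*elp6*∆*hel2*∆ or the first *hel2*∆ library. Ribosome biogenesis genes gave 11 higher (14.3%, against 6.42% of all genes) and 2 lower (2.6%, against 8.14%) of 77. *NOP12*, needed for the large subunit, went from 115, 114 and 119.7 to 252, 471 and 257 CPM (log2 fold change 1.55 ± 0.33 SE, adjusted p = 0.00316), and *RPF2*, another large subunit factor, from 104, 90.9 and 104 to 272, 218 and 195 CPM (log2 fold change 1.14 ± 0.26 SE, adjusted p = 0.00652), both with no overlap. The helicase gene *DBP7* fell from 775, 545 and 578 to 192, 229 and 473 CPM (log2 fold change −1.07 ± 0.28 SE, adjusted p = 0.0135). In this list 1 gene was called higher and none lower without the second *ncs2*∆*elp6*∆*hel2*∆ library, 4 and none without the first *hel2*∆ library, and 20 higher without the third *ncs2*∆*elp6*∆*hel2*∆ library. *MRPL36* and *DBP7* lost the call without the first *hel2*∆ library. *DBP7* lost the call without the first and *MRPL36*, *NOP12* and *DBP7* without the second *ncs2*∆*elp6*∆*hel2*∆ library.

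**Figure D3:**
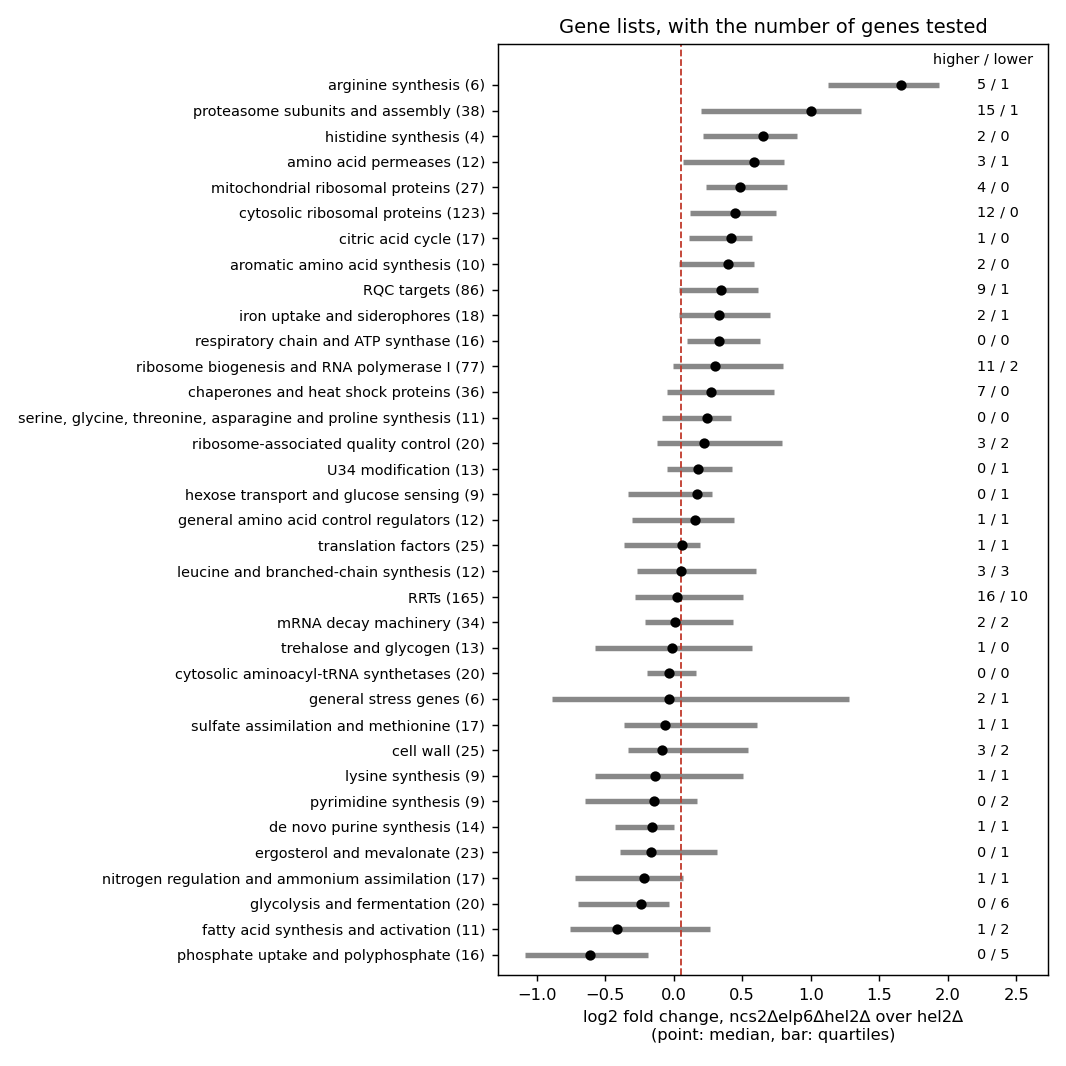
Median (point) and quartiles (bar) of the log2 fold change, *ncs2*∆*elp6*∆*hel2*∆ over *hel2*∆, for each gene list, with the number of genes tested in brackets and the number called higher and lower at the right. The dashed line is the median of all 3378 genes, 0.05; the arginine list (1.66) and the proteasome list (1.00) have the highest medians and the phosphate list (−0.61) the lowest.

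A few single genes rose strongly outside these groups. *ALD4*, the mitochondrial aldehyde dehydrogenase, stood at 32.8, 34.1 and 26.0 CPM in *hel2*∆ and 131, 131 and 146 CPM in *ncs2*∆*elp6*∆*hel2*∆ (log2 fold change 2.15 ± 0.37 SE, adjusted p = 0.00054). *EDC1*, an activator of mRNA decapping, went from 16.4, 22.7 and 52.0 to 101, 124 and 155 CPM and rose 3.99-fold (adjusted p = 0.00134). Both had no overlap and kept their calls under every setting that tested them. *XBP1*, a transcriptional repressor induced by stress, went from 81.9, 102 and 109 to 303, 277 and 292 CPM (log2 fold change 1.56 ± 0.29 SE, adjusted p = 0.00106). *PGA2*, an essential gene of protein trafficking, went from 16.4, 0 and 26.0 to 50.4, 74.2 and 70.8 CPM (log2 fold change 1.98 ± 0.49 SE, adjusted p = 0.0102), and *VPS501*, a sorting nexin gene, from 21.8, 22.7 and 15.6 to 60.5, 74.2 and 75.2 CPM (log2 fold change 1.86 ± 0.47 SE, adjusted p = 0.0108). Both rested on few reads. *PGA2* and *VPS501* lost the call without the first and *VPS501* without the third *hel2*∆ library. *PGA2* and *VPS501* lost the call without the second *ncs2*∆*elp6*∆*hel2*∆ library.

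The largest fall belonged to *PHO84* (YML123C, chromosome XIII, 24037 to 25800), the high-affinity phosphate transporter. It had 57, 19 and 50 reads in *hel2*∆ and 2, 13 and 6 in *ncs2*∆*elp6*∆*hel2*∆, or 311, 216 and 260.2 CPM and 20.2, 28.4 and 26.6 CPM. The strains lay far apart and *PHO84* fell 9.87-fold (log2 fold change −3.30 ± 0.31 SE, adjusted p = 1.45e-07). *VTC3*, a subunit of the polyphosphate polymerase, went from 186, 193 and 203 to 40.3, 32.7 and 66.4 CPM (log2 fold change −2.10 ± 0.30 SE, adjusted p = 8.39e-05), and the polymerase genes *VTC1* and *VTC4* had −0.73 ± 0.28 and −0.64 ± 0.23 (adjusted p = 0.0855 and 0.0559). *PHO81*, the inhibitor of the Pho80-Pho85 kinase, fell from 267, 284 and 239 to 161, 116 and 111 CPM (log2 fold change −1.08 ± 0.23 SE, adjusted p = 0.00368). *PHO3*, a constitutive acid phosphatase, fell from 573, 352 and 239 to 141, 93.8 and 208 CPM (log2 fold change −1.46 ± 0.33 SE, adjusted p = 0.00511). *PHO5*, the repressible acid phosphatase, stood at 153, 159 and 119.7 CPM in *hel2*∆ and 30.3, 34.9 and 133 CPM in *ncs2*∆*elp6*∆*hel2*∆, with −1.09 ± 0.40 (adjusted p = 0.0675) and the third *ncs2*∆*elp6*∆*hel2*∆ library inside the range of *hel2*∆. Of 16 phosphate genes tested, 5 fell (31.2%, against 8.14% of all genes) and none rose, and the median was −0.61. The number that fell was 3 without the second *ncs2*∆*elp6*∆*hel2*∆ or the first *hel2*∆ library and 8 without the third *ncs2*∆*elp6*∆*hel2*∆ library. *PHO3* lost the call without the first *hel2*∆ library. *PHO3* lost the call without the second *ncs2*∆*elp6*∆*hel2*∆ library.

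Genes of glucose breakdown fell as well. Of 20 genes of glycolysis and fermentation 6 fell (30.0%, against 8.14% of all genes) and none rose, with a median of −0.24. In this list none was called without the second *ncs2*∆*elp6*∆*hel2*∆ or the first *hel2*∆ library, and 3 were without the second or the third *hel2*∆ library. *HXK2*, the main hexokinase, went from 508, 454 and 484 to 202, 242 and 305 CPM (log2 fold change −0.93 ± 0.23 SE, adjusted p = 0.01). *PFK1* and *PFK2*, both subunits of phosphofructokinase, both fell, with log2 fold changes of −1.03 ± 0.31 and −0.86 ± 0.24 (adjusted p = 0.0279 and 0.0174), *PFK1* from 8134, 10485 and 6969 to 4892, 2322 and 5314 CPM. *PDC5*, a pyruvate decarboxylase, fell (−1.15 ± 0.32, adjusted p = 0.0193). *SOL4*, of the pentose phosphate pathway, fell from 229, 204 and 151 to 60.5, 28.4 and 97.3 CPM (log2 fold change −1.77 ± 0.36 SE, adjusted p = 0.00214). *TDH3*, *PDC1* and *ADH1* had −0.18, −0.26 and −0.22, with adjusted p of 0.66, 0.556 and 0.533. *HXK2*, *PFK1*, *PFK2* and *PDC5* lost the call without the first, *PFK1* and *PFK2* without the second and *PDC5* without the third *hel2*∆ library. *HXK2*, *PFK1*, *PFK2* and *PDC5* lost the call without the second *ncs2*∆*elp6*∆*hel2*∆ library.

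Among the 12 largest falls were a metal transporter and a pair of surface proteins. *SMF1*, a manganese transporter, stood at 857, 909 and 609 CPM in *hel2*∆ and 111, 109 and 204 CPM in *ncs2*∆*elp6*∆*hel2*∆ and fell 5.52-fold (log2 fold change −2.47 ± 0.28 SE, adjusted p = 5.81e-06). *AGA1*, the anchor subunit of a-agglutinin, stood at 513, 795 and 749 CPM in *hel2*∆ and 131, 129 and 177 CPM in *ncs2*∆*elp6*∆*hel2*∆ and fell 4.65-fold (log2 fold change −2.22 ± 0.26 SE, adjusted p = 7.67e-06). For both the strains were apart and the call held under every setting that tested them. *TIR1*, a cell wall mannoprotein, went from 175, 227 and 104 to 10.1, 30.6 and 31.0 CPM (log2 fold change −2.51 ± 0.38 SE, adjusted p = 0.000129), and *SCW4*, a cell wall glucanase, fell (−1.31 ± 0.25, adjusted p = 0.00115), while *CWP1*, another wall mannoprotein, rose from 92.8, 114 and 135 to 333, 325 and 283 CPM (log2 fold change 1.45 ± 0.24 SE, adjusted p = 0.0004). Of 25 cell wall genes 3 rose and 2 fell, and 1 rose without the first *hel2*∆, the first *ncs2*∆*elp6*∆*hel2*∆ or the second *ncs2*∆*elp6*∆*hel2*∆ library. Of 18 iron genes 2 rose (11.1%) and 1 fell (5.56%). The siderophore transporter *ENB1* fell from 540.5, 466 and 432 to 121, 133 and 221 CPM (log2 fold change −1.58 ± 0.26 SE, adjusted p = 0.0004), while *SIT1*, another siderophore transporter, and *FTR1*, the iron permease, rose by 1.14 ± 0.30 and 0.94 ± 0.23 (adjusted p = 0.0129 and 0.00961). *SIT1* lost the call without the first and *FTR1* without the third *hel2*∆ library. *SIT1* and *FTR1* lost the call without the second *ncs2*∆*elp6*∆*hel2*∆ library.

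Of the remaining genes among the 12 largest falls, *KAR5*, needed for nuclear fusion, had 104, 68.2 and 62.5 and 10.1, 6.55 and 13.3 CPM (log2 fold change −3.06 ± 0.56 SE, adjusted p = 0.000828). *SRB5*, a subunit of Mediator, had 475, 375 and 271 and 60.5, 32.7 and 124 CPM (log2 fold change −2.46 ± 0.35 SE, adjusted p = 8.39e-05). *CDA1*, a chitin deacetylase of the spore wall, had 426, 261 and 271 and 20.2, 32.7 and 133 CPM (log2 fold change −2.35 ± 0.39 SE, adjusted p = 0.0004), with the third library again nearest to *hel2*∆. *URA10*, the minor orotate phosphoribosyltransferase, fell (log2 fold change −2.29 ± 0.47 SE, adjusted p = 0.00219), as did *OSI1* (−2.21 ± 0.58, adjusted p = 0.0135) and *ISF1* (−2.46 ± 0.66, adjusted p = 0.0153). *ISF1* moved from −4.29 without the third to −1.60 without the second *ncs2*∆*elp6*∆*hel2*∆ library. *ERG26*, a C-3 sterol dehydrogenase, was the 1 gene called among 23 of ergosterol synthesis, at 677, 648 and 468 CPM in *hel2*∆ and 141, 107 and 269.9 CPM in *ncs2*∆*elp6*∆*hel2*∆ (log2 fold change −1.80 ± 0.32 SE, adjusted p = 0.00058). *OSI1* and *ISF1* lost the call without the first and *ISF1* without the second *hel2*∆ library. *OSI1* and *ISF1* lost the call without the second *ncs2*∆*elp6*∆*hel2*∆ library.

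Of 20 factors of RQC itself tested, 3 were higher and 2 lower, and the median was 0.22. *RKR1*, the ubiquitin ligase that marks stalled nascent chains (Ltn1), went from 2342, 1909 and 1697 to 817, 716 and 1327 CPM (log2 fold change −1.05 ± 0.25 SE, adjusted p = 0.0066), with no overlap and a call that held under every setting that tested it. *SLH1*, the helicase that splits collided ribosomes, fell (−0.73 ± 0.24, adjusted p = 0.044). *CUE3*, of the same complex as Slh1, rose from 32.8, 11.4 and 31.2 to 80.7, 87.3 and 57.5 CPM (log2 fold change 1.44 ± 0.42 SE, adjusted p = 0.0244). *UFD1* and *NPL4*, the partners of Cdc48 that extract stalled chains, rose by 1.40 ± 0.42 and 1.07 ± 0.33 (adjusted p = 0.0258 and 0.0312). No RQC factor was called higher without the second *ncs2*∆*elp6*∆*hel2*∆, the second *hel2*∆ or the third *hel2*∆ library. Under DESeq2, with every library kept, 0 RQC factors were called higher and 1 lower. *MBF1*, which keeps the frame at collided ribosomes, stood at 966, 784 and 869 CPM in *hel2*∆ and 1725, 1157 and 1296 CPM in *ncs2*∆*elp6*∆*hel2*∆, with 0.65 ± 0.23 (adjusted p = 0.0591). Of 34 genes of mRNA decay 2 rose and 2 fell (5.88% each), shares below those of all genes. Among them *XRN1*, the 5′ to 3′ exonuclease that degrades fragments with a 5′ phosphate, fell from 639, 761 and 718 to 393, 415 and 438 CPM (log2 fold change −0.75 ± 0.20 SE, adjusted p = 0.0157), without overlap. *SKI3*, of the Ski complex, fell (−0.67 ± 0.22, adjusted p = 0.044), and *EDC1* and the exosome gene *RRP45* (1.45 ± 0.48, adjusted p = 0.0447) rose, *RRP45* with 0.96 without the first and 2.53 without the third *hel2*∆ library. Of 13 genes of U34 modification, *HRR25*, a kinase that acts on Elongator through Kti12, fell (−0.78 ± 0.23, adjusted p = 0.0282) and none rose. *CUE3*, *NPL4*, *SKI3*, *RRP45* and *HRR25* lost the call without the first, *SLH1*, *CUE3*, *UFD1*, *NPL4*, *XRN1*, *SKI3*, *RRP45* and *HRR25* without the second and *SLH1*, *CUE3*, *UFD1*, *NPL4* and *SKI3* without the third *hel2*∆ library. *SLH1*, *NPL4*, *XRN1*, *SKI3*, *RRP45* and *HRR25* lost the call without the first, *SLH1*, *CUE3*, *UFD1*, *NPL4*, *XRN1*, *SKI3*, *RRP45* and *HRR25* without the second and *NPL4* without the third *ncs2*∆*elp6*∆*hel2*∆ library.

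The study sorted transcripts into RQC targets and RQC-refractory transcripts (RRTs) by disome profiling, where a disome is a pair of stacked ribosomes. That sorting set *ncs2*∆*elp6*∆ against wild type and against *ncs2*∆*elp6*∆*hel2*∆. By the study's methods, *hel2*∆ appears to have entered the disome analysis as well. The lists are therefore not independent of *ncs2*∆*elp6*∆*hel2*∆ and may not be independent of *hel2*∆. The study's text and legend give the sizes of the lists in opposite order, and membership here follows the label of each gene in its table. Of 137 RQC targets 86 were tested, and 9 rose (10.5%, against 6.42% of all genes) and 1 fell (1.16%, against 8.14%). Their median was 0.34, and 75.6% were positive, against 53.6% of all genes. Of 188 RRTs 165 were tested, with 16 higher (9.70%), 10 lower (6.06%) and a median of 0.02. With *HEL2* present, in *ncs2*∆*elp6*∆ against wild type, RQC targets had 24 higher, 2 lower and a median of 0.395. RRTs had 32 higher, 22 lower and a median of 0.15 there, where 13.4% of all genes were higher and 16.7% lower. RQC targets held 1.70, 1.84 and 2.27% of the reads in *hel2*∆ and 2.39, 3.15 and 2.42% in *ncs2*∆*elp6*∆*hel2*∆, with no overlap. In mean log2 CPM, RQC targets differed from RRTs by −0.67, −0.73 and −0.56 in *hel2*∆ and −0.52, −0.20 and −0.48 in *ncs2*∆*elp6*∆*hel2*∆, or −0.65 ± 0.09 and −0.40 ± 0.17 (SD, n = 3). The strains did not overlap, and the second *ncs2*∆*elp6*∆*hel2*∆ library stood apart from the others of its strain. Relative to mRNA levels, the study reported more decay of RQC targets in *ncs2*∆*elp6*∆, an effect that was lost in *ncs2*∆*elp6*∆*hel2*∆. The reads here are not set against mRNA levels, so their rise does not by itself mean more decay.

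Among the RQC targets that rose were *DSE1*, a gene of daughter cell separation, at 180.2, 114 and 187 CPM in *hel2*∆ and 403, 382 and 504 CPM in *ncs2*∆*elp6*∆*hel2*∆ (log2 fold change 1.36 ± 0.24 SE, adjusted p = 0.000645), and *NHP10*, a subunit of the INO80 chromatin remodeller, at 60.0, 22.7 and 67.7 CPM in *hel2*∆ and 131, 212 and 212 CPM in *ncs2*∆*elp6*∆*hel2*∆ (log2 fold change 1.80 ± 0.33 SE, adjusted p = 0.000789). *SHE10* went from 273, 409 and 427 to 847, 1294 and 699 CPM (log2 fold change 1.39 ± 0.28 SE, adjusted p = 0.00184). All of them were without overlap and held their calls under every setting that tested them. *CRM1*, the nuclear export receptor, was the 1 target that fell, from 284, 261 and 302 to 121, 157 and 164 CPM (log2 fold change −0.91 ± 0.23 SE, adjusted p = 0.00994). Of the RRTs, *UFD4*, a ubiquitin ligase, fell from 611, 568 and 510.1 to 303, 196 and 314 CPM (log2 fold change −1.10 ± 0.23 SE, adjusted p = 0.0032) and *HO*, the mating-type endonuclease gene, which is not functional in this laboratory strain, from 186, 159 and 172 to 70.6, 74.2 and 44.2 CPM (log2 fold change −1.44 ± 0.30 SE, adjusted p = 0.00272), while *RPT3*, *PRE6* and *LEU4*, described above, were among those that rose. Without the second *ncs2*∆*elp6*∆*hel2*∆ library 3 RQC targets rose and 1 fell, and 4 RRTs rose and 2 fell. Without the first *hel2*∆ library these were 5 and 1, and 3 and 2, and RRTs that rose numbered 7 without the second or the third *hel2*∆ library and 8 without the first *ncs2*∆*elp6*∆*hel2*∆ library.

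Called genes differed in length and position. Coding length had a median of 1338 bp in the higher genes, 1761 bp in the lower genes and 1620 bp in all tested. Over 5 groups of like size by coding length, the share called higher went 10.4, 7.45, 7.70, 4.78 and 1.94% from the shortest (78 to 972 bp) to the longest (2595 to 14733 bp), and the share called lower 6.39, 7.90, 7.11, 7.31 and 10.7%. The median log2 fold change went 0.32, 0.14, 0.07, −0.02 and −0.13. Within 25 kb of the outermost annotated gene of a chromosome, 1 of 76 genes was higher and 16 (21.1%) were lower, against 216 and 249 (7.58%) of 3284 farther in. *COS9*, a subtelomeric gene, stood at 197, 136 and 177 CPM in *hel2*∆ and 60.5, 21.8 and 66.4 CPM in *ncs2*∆*elp6*∆*hel2*∆ (log2 fold change −2.03 ± 0.38 SE, adjusted p = 0.00106). Of 530 open reading frames in the table with no entry in the RefSeq annotation, 18 passed the filter, and 10 of them were lower and none higher. YGL182C, 1 of the 10, stood at 360.3, 204 and 307 CPM in *hel2*∆ and 70.6, 19.6 and 124 CPM in *ncs2*∆*elp6*∆*hel2*∆ (log2 fold change −2.25 ± 0.41 SE, adjusted p = 0.000882). The filter needs reads in only some of the 12 libraries, so a gene low in *ncs2*∆*elp6*∆*hel2*∆ could pass through the other strains. In 5 such groups by reads per kb, the highest gave 13.7% higher and 15.9% lower genes and the lowest 0.744% and 4.91%.

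The genes with most reads made up a small part of each library and none was called. *CCW12*, a cell wall mannoprotein, stood at 17982, 15870.1 and 15603 CPM in *hel2*∆ and 39224, 24488 and 26307 CPM in *ncs2*∆*elp6*∆*hel2*∆, without overlap, but its log2 fold change of 0.86 ± 0.35 missed the threshold (adjusted p = 0.0954). *RRP12*, a ribosome export factor, took 2.19, 2.85 and 1.93% of the reads in *hel2*∆ and 1.79, 0.706 and 1.59% in *ncs2*∆*elp6*∆*hel2*∆ (log2 fold change −0.92 ± 0.37 SE, adjusted p = 0.0991), with the second *ncs2*∆*elp6*∆*hel2*∆ library lowest. The plasma membrane proton pump *PMA1* had 0.03 ± 0.30 (adjusted p = 0.964). *BRR2*, *USO1* and *CMR1* had −0.90, −0.85 and −0.46 (adjusted p = 0.0794, 0.103 and 0.454).

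The same deletions were compared with *HEL2* present, in 6 libraries that the comparison above does not use. The *LEU2* marker came with the *HEL2* disruption, so the backgrounds also differed in that marker. *LEU2* had 0, 1 and 0 reads in wild type and 0, 1 and 0 in *ncs2*∆*elp6*∆. A difference between the backgrounds can come from *HEL2* or from the marker, and these cannot be told apart. In *ncs2*∆*elp6*∆ against wild type, 453 genes (13.4%) were higher and 563 (16.7%) lower in the same edgeR fit. Of the 217 genes higher without *HEL2*, 154 were also higher with it (71.0% of the 217), out of 453 in all. Of the 275 lower without *HEL2*, 253 were also lower with it (92.0% of the 275 and 44.9% of the 563). Over the 3378 genes the log2 fold changes correlated at Pearson's r = 0.793 and Spearman's rho = 0.766. This is across genes, which are not independent replicates, and the fit shares its scaling and spread. The genes lower without *HEL2* had a median of −1.17 there and −1.95 with *HEL2*, and those higher had 1.14 and 0.99. The difference between the changes was called for 1 gene of the 3378 (0.0296%), *LYS2*, with 328 genes at an unadjusted p under 0.05. Under DESeq2 the difference was called for 41 genes, which fell to 1, *LYS2*, without its independent filtering. Of the 41, 40 were positive, meaning a log2 fold change without *HEL2* above that with it. With no filter on low counts 26 were called, 24 of them positive. With the second *ncs2*∆*elp6*∆*hel2*∆ library left out 92 were called, 88 of them positive.

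**Figure D4:**
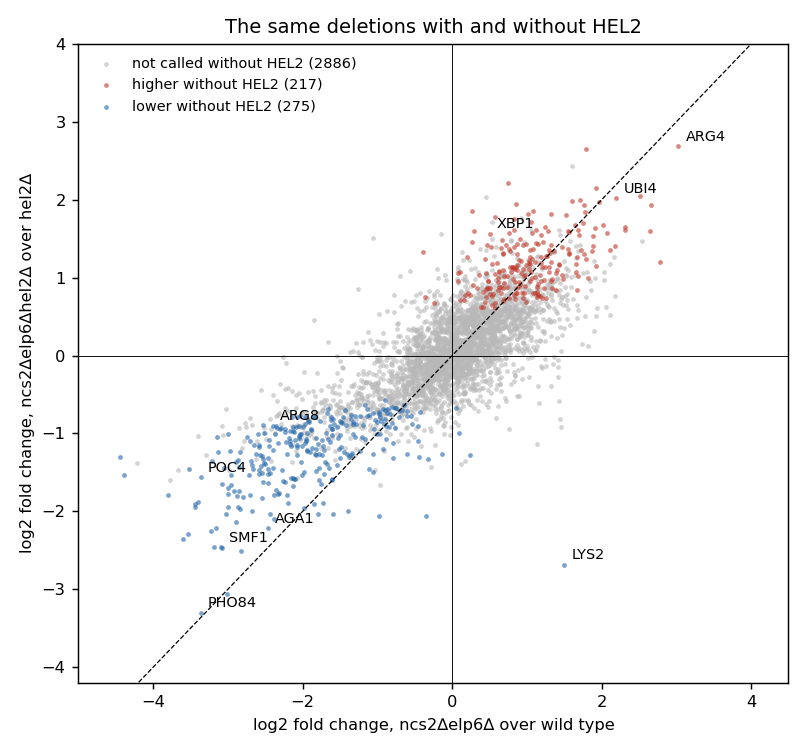
Log2 fold change of each of the 3378 genes for *ncs2*∆*elp6*∆ over wild type (x axis) and *ncs2*∆*elp6*∆*hel2*∆ over *hel2*∆ (y axis), coloured by the call without *HEL2*, with the dashed line at equal changes. Most called genes lie on the same side of 0 on both axes, and *LYS2* lies at 1.50 and −2.69.

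The arginine, proteasome and phosphate lists showed the same directions in both backgrounds. The proteasome list had a median of 1.00 without and 0.96 with *HEL2*, where 17 rose and 3 fell, and 13 rose in both. The phosphate list had medians of −0.61 and −0.99, where 10 fell with *HEL2*, and all 5 that fell without it were among them. The arginine list had 1.66 and 1.15. *ARG4* changed by 2.69 ± 0.23 without and by 3.03 ± 0.25 with *HEL2*, a difference of −0.34 (adjusted p = 0.899), and *PHO84* by −3.30 ± 0.31 and −3.37 ± 0.30 (adjusted p of the difference = 0.997). Of the cytosolic ribosomal protein genes, 44 rose with *HEL2* against 12 without, with medians of 0.62 and 0.45, and none of them was called for the difference.

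*LYS2* (YBR115C, chromosome II, 469748 to 473926) encodes aminoadipate reductase of the lysine pathway. Without *HEL2* it had 40, 15 and 50 reads in *hel2*∆ and 7, 8 and 10 in *ncs2*∆*elp6*∆*hel2*∆, or 218, 170.4 and 260.2 CPM and 70.6, 17.5 and 44.2 CPM, a 6.44-fold fall with no overlap (log2 fold change −2.69 ± 0.36 SE, adjusted p = 4.34e-05). With *HEL2* it had 186, 205 and 124 CPM in wild type and 534, 409 and 531 CPM in *ncs2*∆*elp6*∆, a rise with no overlap (log2 fold change 1.50 ± 0.26 SE, adjusted p = 9.34e-05). The difference between these changes was −4.18 ± 0.45 (adjusted p = 4.45e-06, edgeR's quasi-likelihood test, n = 3 in each of 4 strains). Whether the *ncs2*∆*elp6*∆*hel2*∆ strain carries a further change at *LYS2* itself was not tested, and the labels name none. The other lysine genes did not show a called difference, although the median difference over the 9 tested was −0.90, against 0.08 over all genes. *LYS20*, a homocitrate synthase, stood at 136, 216 and 141 and 212, 212 and 243 CPM without *HEL2* and at 81.7, 103 and 87.4 and 410.1, 217 and 309.9 CPM with it, with a difference of −1.28 ± 0.39 (adjusted p = 0.199). *LYS9*, *LYS12*, *LYS1* and *LYS4* differed by −1.71, −1.39, −0.90 and −0.82 (adjusted p = 0.366, 0.346, 0.785 and 0.642). *LYS21*, the other homocitrate synthase, rose in both backgrounds, by 1.13 ± 0.29 without *HEL2* (adjusted p = 0.012) and by 1.21 with it (adjusted p = 0.00289). *LYS14*, the activator of the pathway, had −0.57 ± 0.26 without and −1.28 ± 0.26 with *HEL2* (adjusted p = 0.136 and 0.000503). *LEU1* stood at 454, 438 and 553 CPM in wild type, 1003, 951 and 1059 in *ncs2*∆*elp6*∆, 224, 159 and 177 in *hel2*∆ and 202, 164 and 208 in *ncs2*∆*elp6*∆*hel2*∆, with a difference between the changes of −1.08 ± 0.30 (adjusted p = 0.178). The *LEU2* marker differed between the backgrounds as well, and its part in these values was not tested. *LYS21* lost the call without the first and *LYS21* without the third *hel2*∆ library. *LYS21* lost the call without the second *ncs2*∆*elp6*∆*hel2*∆ library.

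**Figure D5:**
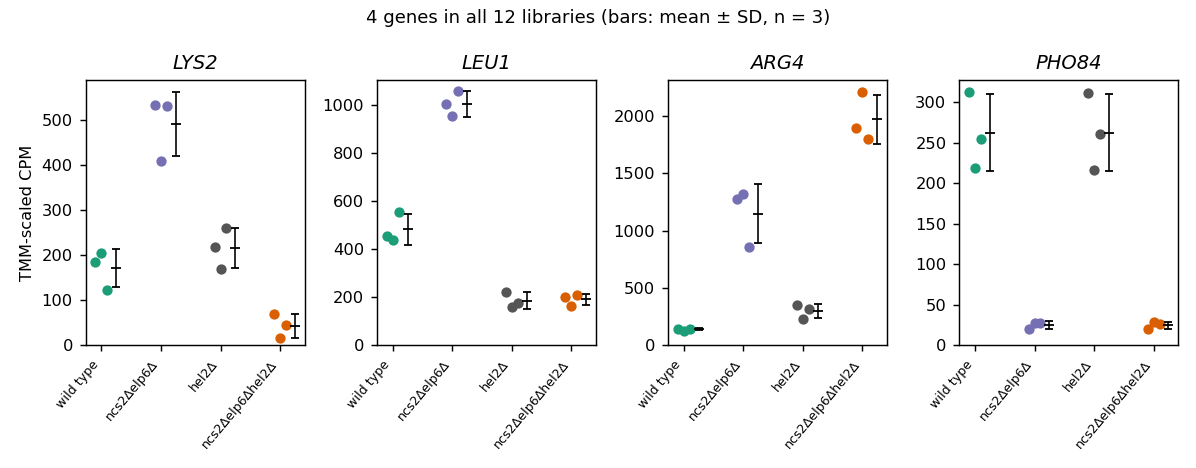
TMM-scaled CPM of *LYS2*, *LEU1*, *ARG4* and *PHO84* in all 12 libraries, 1 point a library, with the mean and SD (n = 3) beside the points of each strain. *LYS2* is highest in *ncs2*∆*elp6*∆ and lowest in *ncs2*∆*elp6*∆*hel2*∆, while *ARG4* and *PHO84* shift the same way in both backgrounds.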

How the data were processed

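5PSeq libraries of 12 yeast samples were used. The authors trimmed adapters (cutadapt), removed noncoding RNA with STAR 2.5.3a, mapped reads uniquely to the sense strand of annotated reading frames with Bowtie 1.2.3, removed duplicates by random barcodes (UMI-tools) and deposited raw counts per gene. All 12 columns were used. Genes were matched by locus tag to RefSeq, assembly R64 (5772 of 6302), which is the build the labels name (sacCer3).

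The counts of all strains were fitted with edgeR 4.0.16 in R 4.3.3 (TMM, filterByExpr with a minimum count of 10, glmQLFit and glmQLFTest, strain as the only factor, common dispersion 0.0337). Adjustment was by Benjamini-Hochberg over all 3378 genes, with calls at an adjusted p under 0.05. SE is the standard error of the log2 fold change. The procedure was tested on simulated data. Lists and their members were chosen with earlier results of these data known, and are described by counts and medians only. Named genes are the deleted, marker and mating-type genes, the 12 largest rises and falls without overlap and with at least 5 reads in each library of the higher strain, up to 4 genes with the lowest adjusted p per list and direction (2 where a list had no call), genes called for the difference between backgrounds, and the 6 genes with most reads. *ARG1*, *ARG3*, *CPA1*, *GCN4*, *LEU1*, *PUP3*, *PRE1*, *PRE2*, *SSA1*, *SSA2*, *RPS14A*, *RPL36B*, *VTC1*, *VTC4*, *PHO5*, *TDH3*, *PDC1*, *ADH1*, *MBF1*, *COS9* and the lysine genes other than *LYS2* and *LYS21* were named after their values were seen. Of the selected genes, 1 is not reported. Alternatives were DESeq2 1.42.0, other filters and scalings, a replicate block, thinning to 104202 reads, the 6 libraries alone and each library left out in turn. Promoter and protein sequences were not analysed here.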

Additional observations from a re-analysis of the deposited data

Results flagged for a closer look

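*LYS2* was the 1 gene whose change on loss of U34 modification differed between cells without and with *HEL2* by the test of the difference itself, −4.18 ± 0.45 on the log2 scale (edgeR's quasi-likelihood test, adjusted p = 4.45e-06 over 3378 genes). All 3 *ncs2*∆*elp6*∆*hel2*∆ libraries were below all 3 *hel2*∆ libraries, and all 3 *ncs2*∆*elp6*∆ libraries were above all 3 wild-type libraries. Over the 17 alternatives that gave it an adjusted p, the difference ran from −4.50 to −3.61 and the adjusted p from 2.62e-19 to 3.86e-05. The backgrounds also differed in the *LEU2* marker, which cannot be told apart from *HEL2*. Whether the *ncs2*∆*elp6*∆*hel2*∆ strain carries a further change at *LYS2* itself was not tested.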

How the results depend on the processing

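Against 492 called genes (217 higher, 275 lower; edgeR, n = 3 and 3), leaving out 1 library gave 129 to 650 calls, 53 to 293 higher and 76 to 357 lower. Thinning all 6 libraries to the smallest total gave 294 (115 and 179). DESeq2 gave 124 higher, and 117 without its independent filtering, a setting chosen after seeing the data. Library totals alone gave 354 higher and 183 lower, and 10 counts in every library compared gave 176 lower. For the difference between backgrounds, against 1 gene, DESeq2 called 41, no low-count filter 26, 10 counts in every library 0 (edgeR; *LYS2* did not pass that filter, and 176 genes had an unadjusted p under 0.05), and leaving out 1 library 1 to 92. Of the 112 named genes called, 42 kept their call under all of their alternatives. The call was lost for 65 without the second *ncs2*∆*elp6*∆*hel2*∆ library, 56 without the first *hel2*∆ library and 29 after thinning. It was lost for 14 under DESeq2, among them *ILV6*, *CAN1*, *SSA4*, *PDC5*, *UFD1*, *NPL4*, *SLH1*, *SKI3* and *RRP45*. *ARG1*, named after its values were seen, lost it there too. Library totals alone lost 8, among them *ARG8*, *SLH1*, *SKI3*, *HRR25* and *PDC5*. The losses given gene by gene above cover left-out libraries only. No named gene that was called changed sign. The difference in RQC targets minus RRTs, 0.25, was 0.25 with library totals and 0.28 with a prior count of 0.5.

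Replicate numbers are shared by the strains, but same-numbered libraries did not deviate together (correlations of −0.02, −0.06 and −0.21). Libraries with different numbers had correlations from −0.18 to 0.27. With 3 libraries in each strain, the deviations from a strain mean are tied to each other. These values therefore cannot decide whether same-numbered libraries were prepared together. With the replicate block the fit called 418 genes, 167 higher and 251 lower. The cause of these changes was not tested. Depth limits genes with few reads, since 3 reads in 1 library are up to 34.1 CPM. The promoter and protein features planned for called genes were not run.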
